A study of Mus musculus with 28 samples.

Results

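Epithelial cells of the gastric corpus, the acid-secreting body of the stomach, were compared between old and younger mice carrying a villin-PPARD transgene. The comparison sets the 5 villin-PPARD libraries of mice aged 55 weeks against the 4 villin-PPARD libraries of mice aged 25 weeks, chosen by genotype and age from the labels, so that it covers 9 of the 28 libraries of the study. In these mice the promoter of villin, which is mainly used to express genes in intestinal epithelium, drives PPARD, and the mice of both ages carry the transgene. The whole study also holds villin-PPARD mice of 10 weeks (n = 5) and wild-type littermates of 55 weeks (n = 5), 25 weeks (n = 4) and 10 weeks (n = 5). No other allele or agent is given for any group. Each library came from 1 mouse: the cells were scraped by hand from the opened corpus, and polyadenylated RNA of the scraped cells was sequenced without marking the strand. Scraped epithelium is a mixture that can hold immune cells, stroma and other cells of the stomach wall.

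PPARD, peroxisome proliferator-activated receptor delta, is a nuclear receptor that pairs with a retinoid X receptor and, when bound by fatty acids, raises genes of fatty acid transport and oxidation. The glands of the healthy corpus hold acid-secreting parietal cells, mucous neck cells, enzyme-secreting chief cells and endocrine cells, and their surface is lined by mucous pit cells. When parietal cells are lost, chief and neck cells can take on a mucous state called spasmolytic polypeptide-expressing metaplasia (SPEM), which is known to carry CD44, clusterin and other repair genes and can lie beside intestinal-type metaplasia.

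Total counts ran from 18495690 to 30891108 in the 55-week libraries and from 12812119 to 21945415 in the 25-week libraries. The column names of the deposited table also give a library group. All 55-week libraries of both genotypes belong to the second group and all 25-week villin-PPARD libraries to the first, so age and library group cannot be told apart within these 9 libraries. The 10-week libraries hold both library groups, and a fit with a library group term estimated from them is given beside the results, together with wild-type mice, whose libraries of 55 and 25 weeks differ in library group as well, apart from wild-type replicate 3 of 25 weeks, which is tagged as a replacement. The 10 most abundant genes took 14.7%, 15.3%, 15%, 14% and 13.9% of counts in the 55-week libraries, against 23.9%, 25.7%, 23.9% and 23.2% in the 25-week libraries, and these groups did not overlap. A two-sided exact permutation test gave p = 0.0159, the smallest that 5 against 4 libraries can give, and 0.0794 after adjustment over 10 such tests. Genes with at least 10 counts numbered 14080 to 15792 at 55 weeks and 13169 to 13972 at 25 weeks, also without overlap (exact permutation p = 0.0159, adjusted 0.0794). Mitochondrially encoded genes took 2.01% to 5.24% of counts at 55 weeks and 4.12% to 6.27% at 25 weeks (exact permutation p = 0.0635, adjusted 0.212), and without replicate 1 of 55 weeks the groups no longer overlapped and the p was 0.0286, the smallest that 4 against 4 can give. The sources give separate animals but no dates, so litter, day and cage effects were not tested.

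Ppard itself did not differ past the threshold between the ages. Mouse Ppard (chromosome 17, 28232700 to 28301474, GRCm38) had 84.7, 102, 93.8, 98.9 and 87.2 CPM at 55 weeks, against 79.7, 87.8, 95.2 and 99.6 CPM at 25 weeks, where CPM, the usual depth-scaled read count, is a count divided by its library total and scaled by the trimmed mean of M-values (TMM). The libraries of the ages overlapped, with a log2 difference of 0.04 ± 0.10 (SE) for 55 minus 25 weeks and an edgeR adjusted p of 0.748. With library size as the only scaling, which shifted the median of all genes to 0.34, it passed (adjusted p = 0.00389). Wild-type mice averaged 79.4 ± 5.42 CPM at 55 weeks (SD, n = 5) and 73.2 ± 9.05 CPM at 25 weeks (SD, n = 4). Whether reads of the transgene are among the counts of mouse Ppard is not stated in the labels. Vil1, which encodes the microvillus protein villin and lends the transgene its promoter, had 383, 441, 458, 407 and 466 CPM at 55 weeks, against 199, 166, 83.4 and 193 CPM at 25 weeks. Every 55-week library lay above every 25-week library, replicate 3 of 25 weeks was lowest, and the log2 difference was 1.42 ± 0.20 (edgeR adjusted p = 1.12e-06). In wild-type mice the log2 difference of Vil1 was 0.21, and the change with age differed between genotypes by 1.21 (edgeR adjusted p = 0.00152).

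Across all genes, 7493 of 15812 tested (47.4%) passed the edgeR quasi-likelihood test at a Benjamini-Hochberg adjusted p under 0.05 between 55 and 25 weeks. They comprised 3889 genes (24.6%) that were higher and 3604 (22.8%) that were lower at 55 weeks, and 1707 (10.8%) and 1314 (8.31%) of the tested genes were called with at least a 2-fold difference. Because about 1 gene in 2 moved, the counts of the gene groups that follow are to be read against these shares. With a library group term, 2471 genes (15.6%) were higher and 2539 (16.1%) lower, and 4862 of the genes called without the term (64.9%) kept their call and direction. In wild-type mice of the same ages 174 genes (1.10%) passed, 93 higher (0.588%) and 81 lower (0.512%), 2359 genes (14.9%) had an unadjusted p under 0.05, and 3 genes (0.0190%) passed with a library group term. In villin-PPARD mice 53.3% of genes had an unadjusted p under 0.05. The wild-type count varied with the libraries used: it was 32, 38 and 107 without replicate 1, 2 or 5 of 55 weeks and 76, 106 and 54 without replicate 1, 3 or 4 of 25 weeks. It was 145 and 210 without replicate 3 or 4 of 55 weeks and 173 without replicate 2 of 25 weeks. The change with age itself differed between genotypes for 4570 genes (28.9%), of which 2255 (14.3%) had the more positive and 2315 (14.6%) the more negative change in villin-PPARD mice. On log2 CPM, the first principal component of the 9 libraries held 73.1% of the variance and placed all 55-week libraries on the other side of 0 from the 25-week libraries. Replicate 3 of 25 weeks lay farthest out on the younger side and replicate 4 of 25 weeks closest to the older mice. Scaling bears on direction: TMM left the median log2 difference of all genes at 0.01, and library size alone put it at 0.34, with 80.6% of calls higher against 51.9% with TMM.

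**Figure D1:**
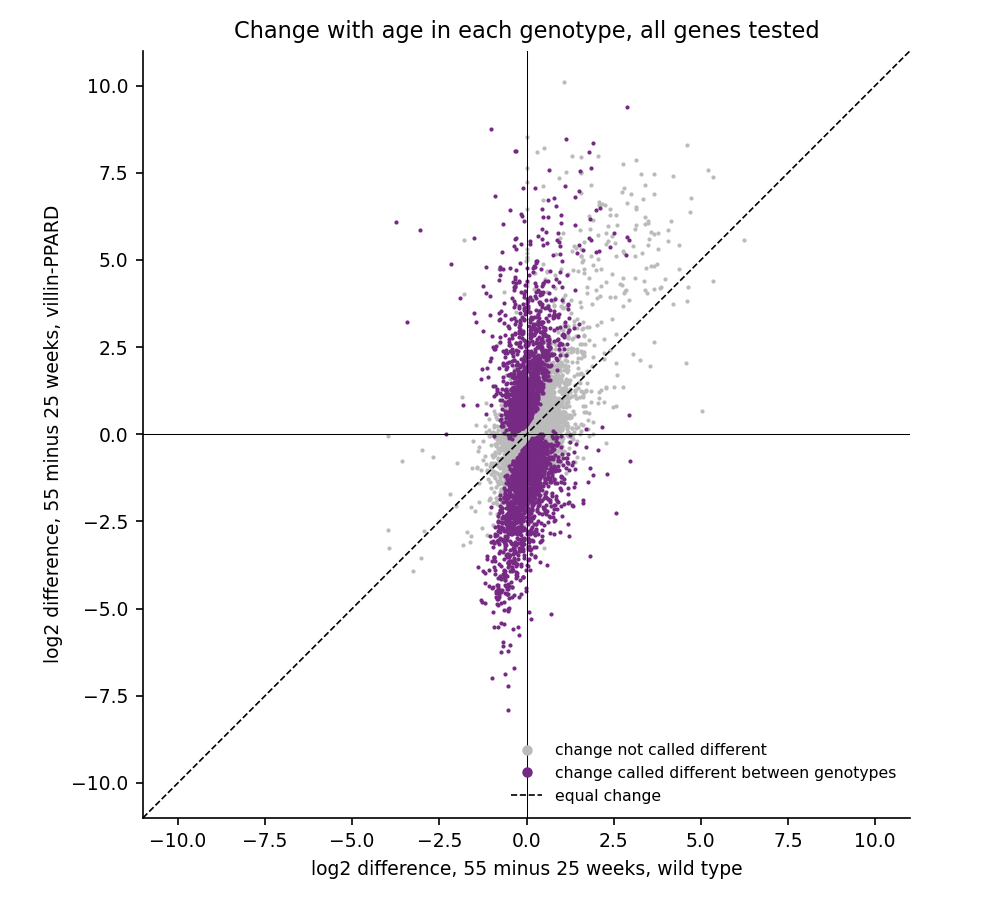
Each point is 1 of the 15812 genes tested, with its log2 difference of 55 minus 25 weeks in villin-PPARD mice (n = 5 and 4) on the vertical axis and in wild-type mice (n = 5 and 4) on the horizontal axis. Purple points are the 4570 genes whose change was called different between genotypes, and the cloud is stretched far more along the villin-PPARD axis than along the wild-type axis.

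**Figure D2:**
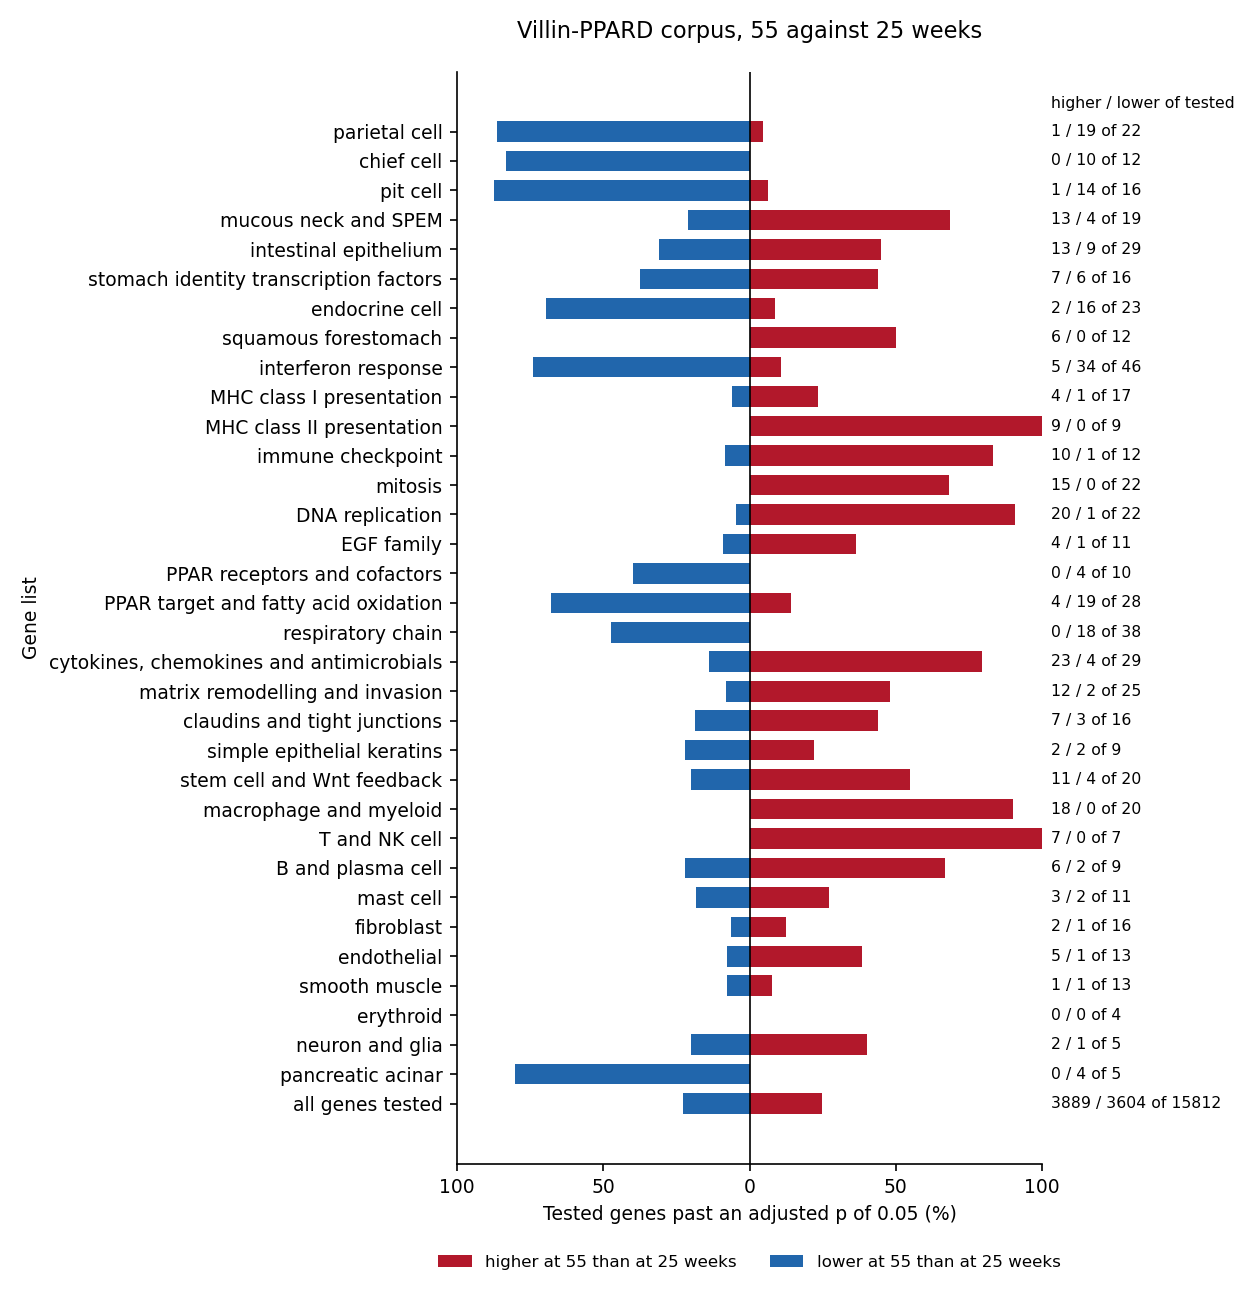
For each of 33 gene lists and for all genes tested, bars give the percentage of tested genes called higher (right, red) or lower (left, blue) in villin-PPARD mice at 55 than at 25 weeks, with the counts at the right. Parietal, chief, pit and endocrine lists lie mostly on the lower side, and MHC class II, DNA replication and myeloid lists mostly on the higher side. All genes tested split 24.6% higher and 22.8% lower. Bars of lists with genes near 0 at 25 weeks, such as T and NK cells, give no direction, because such genes could pass the count filter through the 55-week libraries alone.

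Parietal cell genes were lower at 55 weeks almost throughout. Of 22 tested genes 19 fell and 1 rose (median log2 difference -2.29, all genes 0.01), and 18 had all 55-week libraries below all 25-week libraries, against 16.8% of all genes. Atp4a, the catalytic subunit of the proton pump that secretes acid (chromosome 7, 30712209 to 30725534), had 280, 278, 102, 101 and 162 CPM at 55 weeks, against 3944, 4482, 5906 and 2559 CPM at 25 weeks. It was 22.9-fold lower at 55 weeks (log2 difference -4.52 ± 0.28, edgeR adjusted p = 3.05e-13). Its partner subunit Atp4b had 154, 123, 44.2, 41.6 and 66.0 CPM at 55 weeks, against 1964, 2156, 3010 and 1222 CPM at 25 weeks, a log2 difference of -4.61. For both subunits the highest 55-week library was below the lowest 25-week library, replicate 4. Kcne2, a potassium channel subunit of the acid-secreting membrane, was at 4.64, 4.41, 1.5, 1.34 and 2.40 CPM at 55 weeks, against 75.9, 92.1, 111 and 48.9 CPM at 25 weeks. Hrh2, the histamine receptor that triggers acid secretion, had 2.42, 2.05, 1.23, 1.45 and 1.10 CPM at 55 weeks, against 23.4, 29.6, 35.7 and 20.1 CPM at 25 weeks, with no overlap. The gastrin receptor Cckbr and the nuclear receptor Esrrg, which parietal cells use for their acid program, fell by 4.42 and 5.01 on the log2 scale (edgeR adjusted p = 2.71e-11 and 2.39e-13). Of the potassium channels, Kcnj16 was 16.7-fold and Kcnj15 6.10-fold lower, while the anion transporters Slc4a2, Slc12a2 and Slc26a9 fell by less than 1 log2 unit (-0.89, -0.79 and -0.90). The exception was Kcnq1, the pore of the potassium channel that Kcne2 joins, with 176, 140, 153, 160 and 161 CPM at 55 weeks, against 104, 117, 142 and 89.5 CPM at 25 weeks. It was called higher (log2 difference 0.48, edgeR adjusted p = 0.0140) although the groups overlapped, and the call was lost with a library group term (adjusted p = 0.118). Wild-type mice had 0 of the 22 genes higher and 1 lower, Slc4a2, with a median log2 difference of -0.53, and 16 genes had a more negative change in villin-PPARD than in wild-type mice. The list's summed CPM was lower at 55 weeks without overlap in both genotypes. It was 11226 to 15295 CPM against 17740 to 24274 CPM in wild-type mice, and 3288 to 4874 CPM against 10214 to 16161 CPM in villin-PPARD mice. In bulk RNA, fewer cells of a type and less RNA of that type per cell cannot be told apart, here and for every cell type that follows.

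Chief cell genes showed some of the widest drops of the comparison. Of the list's 17 genes 12 passed the count filter, and 10 of them fell and 0 rose (median log2 difference -3.0), while 9 fell with a library group term. Pgc, pepsinogen C (chromosome 17, 47726842 to 47734482), had 1213, 996, 385, 271 and 552 CPM at 55 weeks, against 23007, 28772, 49967 and 13954 CPM at 25 weeks. The groups lay 42.3-fold apart with no overlap (log2 difference -5.40 ± 0.43, edgeR adjusted p = 3.79e-11). Gif, gastric intrinsic factor, which mouse chief cells secrete to carry vitamin B12, had 23.2, 31.7, 4.43, 6.33 and 22.3 CPM at 55 weeks, against 840, 1162, 1353 and 501 CPM at 25 weeks. Chia1, an acidic chitinase of the stomach, had 27.5, 27.3, 7.97, 4.84 and 26.2 CPM at 55 weeks, against 3771, 4696, 7807 and 2009 CPM at 25 weeks, and at -7.92 had the lowest log2 difference of the genes named here. At 55 weeks replicates 3 and 4 were lowest for Pgc, Gif and Chia1, and at 25 weeks replicate 3 was highest and replicate 4 lowest for each of them. Bhlha15 (Mist1), a transcription factor that builds the secretory apparatus of chief cells, was at 2.34, 1.59, 0.847, 2.64 and 1.39 CPM at 55 weeks, against 7.17, 8.90, 18.4 and 5.14 CPM at 25 weeks (log2 difference -2.50). Xbp1, which drives the secretory stress response in many cell types, fell by only 0.41 on the log2 scale and lost its call with a library group term (adjusted p = 0.125), and Rab3d, a granule protein, had a log2 difference of -0.15 that did not pass (edgeR adjusted p = 0.260). In wild-type mice Pgc had a log2 difference of -0.74 and Gif of -0.23, neither past the threshold, and the changes differed between genotypes by -4.66 and -5.54 (edgeR adjusted p = 2.68e-07 and 1.04e-07).

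Several enzymes better known from the pancreas followed the same course. Clps, colipase, which anchors pancreatic lipase to fat droplets, had 73.8, 88.2, 73.8, 22.6 and 58.4 CPM at 55 weeks, against 3311, 4550, 8976 and 1999 CPM at 25 weeks. Pla2g1b, a secreted phospholipase A2, had 49.3, 37.2, 21.5, 17.9 and 30.5 CPM at 55 weeks, against 3486, 4443, 8635 and 1932 CPM at 25 weeks, and Pnliprp1, a relative of pancreatic lipase, 0.855, 0.682, 0.654, 0.298 and 0.497 CPM at 55 weeks, against 11.8, 14.7, 15.8 and 4.69 CPM at 25 weeks. Try10, a trypsinogen, had at most 0.0855 CPM at 55 weeks, against at least 3.28 CPM at 25 weeks. These 4 genes had log2 differences of -6.22, -7.21, -4.30 and -6.88. Clps, Pla2g1b and Try10 are among the largest drops, which were chosen from genes without overlap, and Pnliprp1 did not overlap either. Wild-type corpus held the same genes at higher levels, Clps at 12035 ± 4945 CPM at 55 weeks (SD, n = 5) and 17360 ± 5388 CPM at 25 weeks (SD, n = 4). Of 11 pancreatic acinar markers 5 passed the count filter and 4 of these fell, namely Cel, a bile-salt-activated lipase (-3.09), Try5 (-3.47), Sycn and Ptf1a, an acinar transcription factor (-2.74). The sum of the 11 markers did not fall, with 30.3 to 49.8 CPM at 55 weeks, against 29.6 to 45.6 CPM at 25 weeks. Sycn, of zymogen granules, was called lower in wild-type mice as well. Cela2a, Cela3b, Cpa1 and Prss2, which define pancreatic acinar cells, had at most 7 counts over either age group and were thus near 0 at both ages. Trypsinogens are near-identical copies of each other, and their counts may be split or dropped.

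Endocrine cell genes were lower at 55 weeks for most members. Of 24 genes 23 passed the count filter, 16 fell and 2 rose, and with a library group term 14 fell and 1 rose (median log2 difference -2.63 without the term). Sst, somatostatin, the hormone that restrains acid secretion, had 2.11, 2.82, 1.69, 1.04 and 1.49 CPM at 55 weeks, against 35.8, 44.1, 78.5 and 26.7 CPM at 25 weeks. Chga, chromogranin A of secretory granules, had 46.2, 24.6, 12.5, 27.8 and 17.5 CPM at 55 weeks, against 246, 294, 333 and 174 CPM at 25 weeks. Ghrl, the precursor of the appetite hormone ghrelin, had 74.5, 28.2, 21.6, 44.5 and 23.2 CPM at 55 weeks, against 219, 247, 407 and 144 CPM at 25 weeks. None of the 3 overlapped between ages, and their log2 differences were -4.68, -3.34 and -2.72. Syp and Scg5, proteins of secretory vesicles, and Isl1, a transcription factor of endocrine cells, fell by 3.11, 3.08 and 2.83 on the log2 scale. Slc18a2 and Hdc, which store and make histamine in enterochromaffin-like cells, fell by 3.26 and 1.91 on the log2 scale. The genes that rose were Slc18a1 (2.07), the other vesicular monoamine transporter, and Ddc (0.59), an enzyme of serotonin and dopamine synthesis, and Ddc lost its call with a library group term (adjusted p = 0.141). The change differed from that of wild-type mice for 16 genes of the list, of which 15 were more negative in villin-PPARD mice.

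Surface pit cell genes also fell, by less than the gland genes. Of 16 genes 14 fell and 1 rose (median log2 difference -0.96), and 12 fell and 0 rose with a library group term. Muc5ac, the main mucin of the gastric surface (chromosome 7, 141788972 to 141819231), had 1573, 7160, 4494, 3272 and 4484 CPM at 55 weeks, against 26867, 21141, 14351 and 16808 CPM at 25 weeks. Gkn1, a gastrokine secreted by pit cells, had 7842, 15674, 15225, 6689 and 10379 CPM at 55 weeks, against 36626, 35247, 27453 and 33775 CPM at 25 weeks. Tff1, the trefoil peptide of the surface, had 18939, 28476, 30035, 16592 and 22777 CPM at 55 weeks, against 38033, 34653, 32099 and 42096 CPM at 25 weeks. The 3 genes were lower in every 55-week library, with log2 differences of -2.24, -1.58 and -0.65, and within 55 weeks replicates 2 and 3 were the highest for Gkn1 and Tff1. Psca and Dpcr1, further pit cell products, and Capn9, a protease of the gastric surface, fell by 2.22, 2.31 and 2.09 on the log2 scale. Muc1, a membrane mucin, had a log2 difference of -0.03 (edgeR adjusted p = 0.848). Krt20, a keratin of mature surface cells, ran the other way with 890, 1693, 1748, 1102 and 1467 CPM at 55 weeks, against 630, 657, 310 and 1033 CPM at 25 weeks. Its groups overlapped, and its call was lost with a library group term (log2 difference 0.43, adjusted p = 0.416). No gene of the list passed in wild-type mice (median log2 difference -0.03), and 10 changes were more negative in villin-PPARD mice. With library size alone 10 of the 16 were lower and 2 higher.

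**Figure D3:**
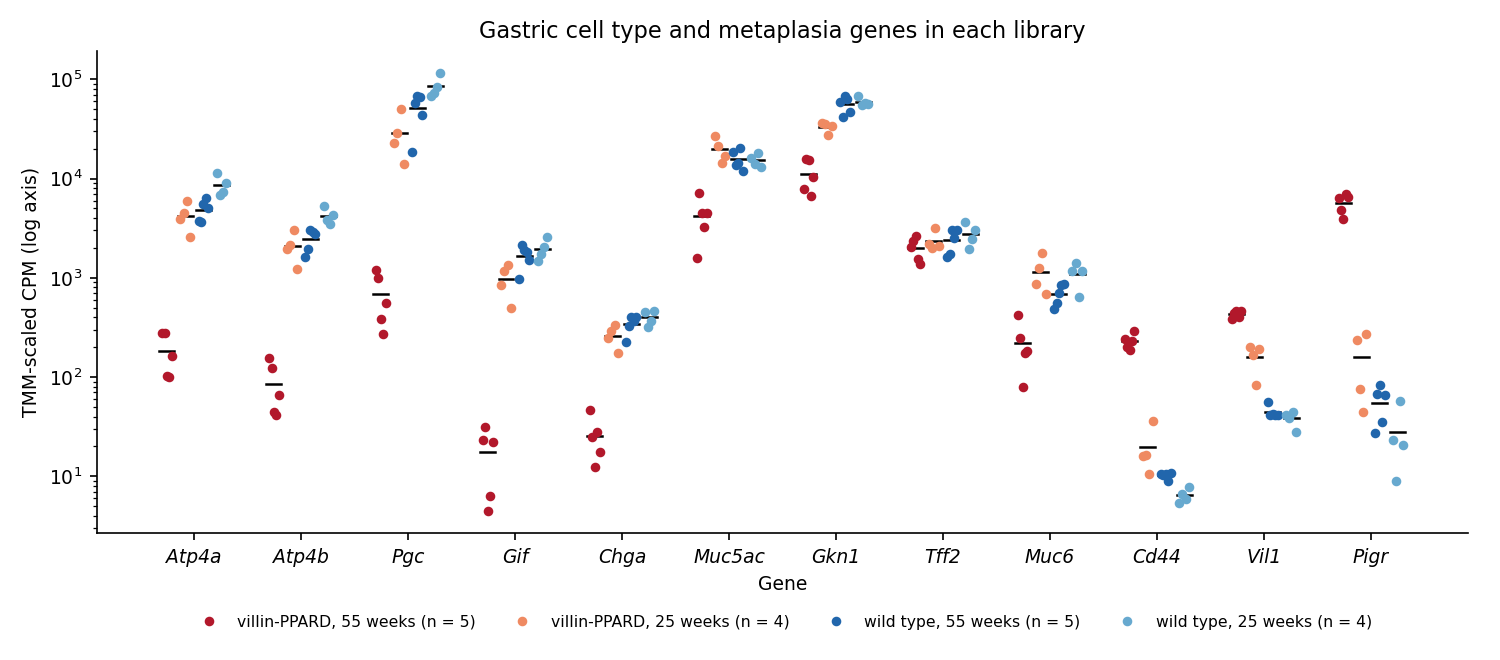
Points are TMM-scaled CPM of single libraries on a log axis for 12 genes, with villin-PPARD mice of 55 weeks (dark red, n = 5) and 25 weeks (orange, n = 4) to the left of wild-type mice of 55 weeks (dark blue, n = 5) and 25 weeks (light blue, n = 4), and bars are group means. Atp4a, Atp4b, Pgc, Gif and Chga are lower and Cd44, Vil1 and Pigr higher in all 55-week villin-PPARD libraries than in any other library shown, while Tff2 overlaps in all 4 groups.

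Genes of SPEM and mucous neck cells split. Of 19 genes 13 rose and 4 fell, the same with a library group term. Each of these 17 had no overlap between ages, against 19.0% of all genes with 55 weeks above and 16.8% with 55 weeks below. The list's summed CPM was 32856 to 39258 at 55 weeks, against 9751 to 15042 at 25 weeks, with no overlap. In wild-type mice it was 6540 to 8865 CPM at 55 weeks and 6595 to 9735 CPM at 25 weeks. Most of the villin-PPARD sum at 55 weeks was Clu and Pigr. Cd44, a hyaluronan receptor of metaplastic and stem-like gastric cells (chromosome 2, 102811141 to 102901665), had 242, 203, 188, 229 and 290 CPM at 55 weeks, against 16.1, 16.5, 10.5 and 35.7 CPM at 25 weeks. It was 11.8-fold higher at 55 weeks (log2 difference 3.57 ± 0.25, edgeR adjusted p = 4.99e-12). Clu, the chaperone clusterin, had 14721, 17829, 23052, 15686 and 16144 CPM at 55 weeks, against 5154, 5139, 2563 and 9444 CPM at 25 weeks. Among the 25-week libraries replicate 4 was highest for both genes and replicate 3 lowest. Pigr, the receptor that carries antibodies across epithelium, had 6329, 4773, 3952, 7065 and 6519 CPM at 55 weeks, against 239, 75.5, 44.3 and 273 CPM at 25 weeks (log2 difference 5.18). Olfm4, a secreted glycoprotein known from intestinal stem cells, had 69.0, 53.6, 18.9, 71.9 and 94.0 CPM at 55 weeks, against 2.20, 2.85, 2.33 and 1.27 CPM at 25 weeks. Wfdc18, a secreted protein, had 21.6, 15.6, 8.12, 10.3 and 15.5 CPM at 55 weeks, against 0, 0.0570, 0 and 0.223 CPM at 25 weeks, so that it was barely detected in the younger mice. Wfdc2, Gpx2, Sox9, Dmbt1 and the chloride channel Cftr rose with log2 differences of 1.39, 1.54, 1.32, 2.58 and 4.14. Among the 4 genes that fell, Muc6, the mucin of neck cells, had 420, 250, 79.7, 174 and 182 CPM at 55 weeks, against 857, 1248, 1759 and 688 CPM at 25 weeks, and Aqp5, Agr2 and Cxcl17 had log2 differences of -1.86, -1.04 and -1.19. Tff2, the spasmolytic polypeptide after which SPEM is named, had 2029, 2356, 2641, 1552 and 1368 CPM at 55 weeks, against 2197, 1984, 3144 and 2092 CPM at 25 weeks. Its libraries overlapped, and the log2 difference of -0.24 did not pass (edgeR adjusted p = 0.346). Wild-type mice had no called gene in the list. The change was more positive in villin-PPARD mice for 10 genes and more negative for 4, with differences of 2.90 for Cd44 and -1.70 for Muc6 (edgeR adjusted p = 3.27e-07 and 0.00709).

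Intestinal epithelial genes did not move as a block. Of 41 genes 29 passed the count filter, 13 rose and 9 fell, and with a library group term 11 rose and 8 fell. Those that rose comprised mucus and goblet cell products as well as brush border genes. The list's summed CPM was higher at 55 weeks, with 6237 to 12431 CPM against 2406 to 2777 CPM at 25 weeks and no overlap. In wild-type mice it was 2082 to 2477 CPM at 55 weeks and 2509 to 3248 CPM at 25 weeks. Most of the villin-PPARD sum at 55 weeks was Fcgbp and Clca1. Fcgbp, a large protein of intestinal mucus, had 2742, 3745, 2311, 4384 and 5289 CPM at 55 weeks, against 22.2, 25.6, 9.07 and 74.1 CPM at 25 weeks. Clca1, a protease of goblet cell mucus, had 902, 3373, 3972, 1434 and 4180 CPM at 55 weeks, against 238, 176, 29.9 and 296 CPM at 25 weeks. Muc13, a membrane mucin, had 630, 507, 352, 789 and 834 CPM at 55 weeks, against 24.3, 20.4, 7.76 and 40.0 CPM at 25 weeks. No 55-week library overlapped the 25-week libraries for these 3 genes, whose log2 differences were 6.83, 3.91 and 4.77, and replicate 3 was the lowest of the 25-week libraries for each. Muc3, a second membrane mucin, and Mep1b, a brush border protease, rose by 6.33 and 6.47, and the goblet cell peptides Tff3 and Spink4 by 2.95 and 1.69, again with no overlap. The genes that fell included Muc2, the mucin that defines goblet cells, which had 0.199, 0.318, 0.385, 0.186 and 0.314 CPM at 55 weeks, against 1.82, 1.88, 1.48 and 0.521 CPM at 25 weeks (log2 difference -2.36, edgeR adjusted p = 5.13e-06). The apolipoproteins Apoa1 and Apoa4 and the peptidase Anpep, enterocyte genes that the corpus also expresses, fell by 4.54, 4.53 and 3.28 on the log2 scale. The intestinal master regulator Cdx1 had 0 counts in all 9 libraries, under the floor of 3 counts over a group that a count of 0 allows, and Cdx2 had 12 counts over the 55-week and 8 over the 25-week libraries, too few to be tested. Sis and Mep1a, defining enterocyte genes, also had 0 counts, and the goblet cell regulator Atoh1 had 12 counts at 55 weeks and 0 at 25 weeks. In wild-type mice 0 genes of the list were higher and 1 was lower, Cdhr5 of the brush border.

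Transcription factors of stomach identity moved in both directions. Of 16 genes 7 rose and 6 fell, unchanged in number with a library group term. Pdx1, a factor of the antrum and duodenum, had 41.1, 56.2, 53.9, 34.4 and 45.8 CPM at 55 weeks, against 16.4, 11.3, 9.56 and 21.3 CPM at 25 weeks. Onecut2 had 217, 159, 155, 231 and 235 CPM at 55 weeks, against 12.6, 13.3, 5.16 and 55.8 CPM at 25 weeks, and Sox2, a factor of the foregut, had 25.9, 23.4, 23.4, 20.5 and 20.2 CPM at 55 weeks, against 11.1, 10.3, 15.6 and 12.9 CPM at 25 weeks. The ages were separated for all 3, with log2 differences of 1.67, 3.23 and 0.86 (edgeR adjusted p = 2.99e-07, 4.98e-06 and 9.51e-05), and replicate 4 was the highest 25-week library for Onecut2. Foxa2, a factor of endoderm, had 8.63, 17.1, 12, 6.63 and 10.2 CPM at 55 weeks, against 54.7, 54, 66.5 and 50 CPM at 25 weeks, while its relative Foxa1 rose by 0.71. Gata4 and Gata6, which act in the epithelium of the stomach, fell by 0.80 and 0.85 on the log2 scale, and Klf4, a factor of differentiated epithelium, by 1.10.

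Stem cell and Wnt genes rose more often than they fell. Of 21 genes 20 passed the count filter, 11 rose and 4 fell, the same with a library group term. Lgr5, which marks stem cells at the gland base and reserve chief cells, had 0.655, 0.136, 0.423, 0.633 and 0.183 CPM at 55 weeks, against 3.25, 5.82, 4.44 and 2.68 CPM at 25 weeks (log2 difference -3.29, edgeR adjusted p = 1.48e-08). Tnfrsf19 (Troy), a second marker of chief cells with stem cell activity, had 0.342, 1.23, 0.539, 0.447 and 0.497 CPM at 55 weeks, against 4.68, 6.39, 5.61 and 2.68 CPM at 25 weeks. Both lay lower in every 55-week library, as did Smoc2 (-2.15). Axin2, a direct target of Wnt signalling, had 4.33, 4.46, 4.66, 2.35 and 2.74 CPM at 55 weeks, against 0.478, 2.0, 1.71 and 1.19 CPM at 25 weeks. Myc, a growth-promoting transcription factor, had 91.0, 74.2, 78.7, 74.4 and 73.3 CPM at 55 weeks, against 39.3, 28.9, 28.2 and 34.3 CPM at 25 weeks, and Ccnd1, cyclin D1, had 141, 144, 174, 136 and 130 CPM at 55 weeks, against 44.9, 43.8, 59.4 and 70.6 CPM at 25 weeks. All 55-week libraries exceeded all 25-week libraries for these 3 genes, with log2 differences of 1.46, 1.26 and 1.41. Prom1, a membrane protein of progenitor cells, and Ephb2, a Wnt-driven receptor, rose by 2.01 and 1.83. Ephb2 was the gene of the list that also passed in wild-type mice (0.87, edgeR adjusted p = 0.0305), and its change still differed between genotypes (0.95, edgeR adjusted p = 0.00949).

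Genes of DNA replication and of mitosis rose for the most part. Of 22 replication genes 20 rose and 1 fell (median log2 difference 0.86), and 19 rose with a library group term. Mcm5, a subunit of the replicative helicase, had 35.6, 35.0, 44.0, 40.0 and 37.8 CPM at 55 weeks, against 15, 16.1, 18 and 18.1 CPM at 25 weeks. The groups did not overlap (log2 difference 1.2 ± 0.13, edgeR adjusted p = 4.11e-09), and the helicase subunits Mcm2, Mcm3, Mcm4, Mcm6 and Mcm7 rose by 0.98, 0.87, 1.05, 0.46 and 0.97. Uhrf1, which copies DNA methylation to new strands, had 31.9, 32.3, 39.8, 44.0 and 41.7 CPM at 55 weeks, against 13.6, 13.1, 16.4 and 18.3 CPM at 25 weeks. Gins1, a helicase cofactor, was the exception and fell by 1.15 on the log2 scale while its partner Gins2 rose by 1.12. Of 22 mitosis genes 15 rose and 0 fell, with a median of 0.54, and 12 rose with a library group term. Aurkb, a kinase of chromosome segregation, had 15.8, 14.4, 16.4, 11.4 and 11.2 CPM at 55 weeks, against 6.07, 5.76, 8.12 and 7.07 CPM at 25 weeks. Tpx2, Cdk1 and Bub1b, which build the spindle, start mitosis and guard it, rose by 0.64, 0.82 and 0.79 with no overlap. Mki67, the usual marker of cycling cells, had 163, 211, 222, 160 and 176 CPM at 55 weeks, against 176, 164, 136 and 153 CPM at 25 weeks, and overlapped, with a log2 difference of 0.25 (edgeR adjusted p = 0.198). Under library size alone all 22 mitosis genes were called higher, Mki67 among them (adjusted p = 0.00229). Neither list had a called gene in wild-type mice, where the medians were -0.18 for replication and -0.09 for mitosis, and 18 replication and 9 mitosis genes had a more positive change in villin-PPARD mice.

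Single genes of the PPAR pathway and of fatty acid oxidation were lower, but the split between higher and lower members of the oxidation list depended on the scaling. Among receptors and cofactors, 10 of 11 passed the count filter, 4 fell and 0 rose: Ppargc1a, a coactivator of mitochondrial biogenesis, fell by 2.27 on the log2 scale, Ppara, the alpha receptor, by 2.16, Rxra, the dimer partner, by 0.45 and Ppargc1b by 0.40. Rxra and Ppargc1b lost their calls under library size alone (adjusted p = 0.258 and 0.652), and Ppargc1b also with a library group term (adjusted p = 0.520). Pparg, the gamma receptor, had a log2 difference of -0.19 (edgeR adjusted p = 0.462). Of 31 target and oxidation genes 28 passed the filter, 19 fell and 4 rose (median log2 difference -0.53), but under library size alone 7 fell and 6 rose. Cd36, a fatty acid transporter, had 1.97, 2.36, 1.92, 1.23 and 1.96 CPM at 55 weeks, against 30.8, 34.8, 47.0 and 18.6 CPM at 25 weeks. Lpl, lipoprotein lipase, had 11.4, 8.55, 8.32, 9.24 and 10.5 CPM at 55 weeks, against 83.6, 104, 150 and 64.9 CPM at 25 weeks. Fabp3, a fatty acid carrier of muscle-like, mitochondria-rich cells, had 1.03, 1.23, 0.462, 0.559 and 0.679 CPM at 55 weeks, against 14.2, 13.6, 29.1 and 10.7 CPM at 25 weeks. These 3 dropped without overlap, by 4.12, 3.39 and 4.43 on the log2 scale. Enzymes of the oxidation spiral moved less, Acadm by -0.94, Hadha by -0.53 and Cpt1a by -0.50. Pdk4 and Angptl4, familiar targets of PPARD, had log2 differences of -0.96 (edgeR adjusted p = 0.00792; 0.110 with a library group term) and 0.11 (edgeR adjusted p = 0.751). The genes that rose were Vnn1, a pantetheinase, with 523, 505, 475, 562 and 632 CPM at 55 weeks, against 120, 98.1, 40.6 and 185 CPM at 25 weeks, the thioesterase Acot1 (1.91), the lipid droplet protein Plin2 (0.99) and the liver-type factor Creb3l3 (0.82), whose call was lost with a library group term. Parietal cells are rich in mitochondria, and the parietal list fell beside these genes. Its part in their drop was not tested. Of 38 nuclear respiratory chain genes 18 fell and 0 rose with a median of -0.27, close to the -0.31 of wild-type mice, and under library size alone 2 fell and 4 rose, so no direction is given for that list.

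Interferon-induced genes, which villin-PPARD mice of 25 weeks expressed far above wild-type mice, were lower at 55 weeks. The list's summed CPM was 4391 to 4661 in the 55-week libraries, against 6278 to 10504 in the 25-week libraries, and wild-type libraries summed to 598 to 779 CPM at 55 weeks and 479 to 659 CPM at 25 weeks. Of 47 genes 46 passed the count filter, 34 fell and 5 rose, and the median log2 difference was -0.73. With a library group term 19 fell and 2 rose, under library size alone 17 fell and 7 rose, and the count of 5 that rose was 2 without replicate 4 and 3 without replicate 5 of 55 weeks or replicate 3 of 25 weeks. Slfn4, a Schlafen protein induced by type I interferon (chromosome 11, 83175186 to 83190216), had 247, 162, 190, 140 and 128 CPM at 55 weeks, against 1438, 1705, 608 and 1176 CPM at 25 weeks. It was 7.10-fold lower with no overlap (log2 difference -2.83 ± 0.27, edgeR adjusted p = 1.82e-09), and its change differed from that in wild-type mice by -3.51 (edgeR adjusted p = 5.02e-07). Isg15, a ubiquitin-like protein, had 60.4, 91.5, 87.6, 49.2 and 57.2 CPM at 55 weeks, against 275, 227, 191 and 229 CPM at 25 weeks. Ifit1, which binds foreign RNA caps, had 56.1, 89.0, 84.4, 35.7 and 47.1 CPM at 55 weeks, against 303, 265, 163 and 169 CPM at 25 weeks, and Ddx58, the RNA sensor RIG-I, had 59.4, 70.2, 70.5, 56.7 and 61.4 CPM at 55 weeks, against 197, 183, 116 and 133 CPM at 25 weeks. All 4 were lower in every 55-week library and still well above the wild-type means, which for Isg15 were 2.88 ± 1.14 CPM at 55 weeks (SD, n = 5) and 3.29 ± 1.51 CPM at 25 weeks (SD, n = 4). Ifi44, Trim30a and Ifi27l2a followed with log2 differences of -1.40, -1.26 and -1.67, again with no overlap. Among transcription factors of the pathway Stat2 fell by 0.74, Irf9 by 0.46 and Irf7 by 0.82 on the log2 scale, and Irf9 and Irf7 lost their calls with a library group term (adjusted p = 0.119 and 0.381). The genes that rose were Slfn9, Gbp2, Gbp4, Cxcl10 and Cxcl9, of which Gbp2, Gbp4, Cxcl9 and Cxcl10 are known to respond to interferon gamma. Cxcl9, a T cell attractant, had 5.95, 1.5, 0.731, 8.20 and 8.41 CPM at 55 weeks, against 0.143, 0.0570, 0 and 0.223 CPM at 25 weeks, highest in replicates 1, 4 and 5 of 55 weeks. Gbp2, Gbp4 and Cxcl10 overlapped between ages and lost their calls with a library group term. Ifit, Oas, Gbp and Schlafen genes have close copies, between which reads may be split or dropped.

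The promoters of 4 interferon-induced genes that fell are given because each holds the core of the interferon-stimulated response element, GAAANNGAAA or its reverse complement TTTCNNTTTC, in the 150 bases before the RefSeq start (RefSeq, GRCm38.p6). Capitals mark every match on either strand, joined where matches overlap. The windows are chr4:156200819-156200968 on the minus strand for Isg15, chr19:34640739-34640888 on the plus strand for Ifit1, chr19:34583379-34583528 on the plus strand for Ifit3 and chr5:120907526-120907675 on the minus strand for Oas1a.
Isg15: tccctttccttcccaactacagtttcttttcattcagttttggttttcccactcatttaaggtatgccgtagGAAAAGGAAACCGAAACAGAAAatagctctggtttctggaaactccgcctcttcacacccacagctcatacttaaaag
Ifit1: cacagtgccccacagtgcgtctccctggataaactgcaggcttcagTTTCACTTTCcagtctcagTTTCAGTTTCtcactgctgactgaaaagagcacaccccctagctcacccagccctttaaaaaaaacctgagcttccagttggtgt
Ifit3: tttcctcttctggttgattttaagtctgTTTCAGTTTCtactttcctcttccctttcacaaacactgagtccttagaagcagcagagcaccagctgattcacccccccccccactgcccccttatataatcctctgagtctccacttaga
Oas1a: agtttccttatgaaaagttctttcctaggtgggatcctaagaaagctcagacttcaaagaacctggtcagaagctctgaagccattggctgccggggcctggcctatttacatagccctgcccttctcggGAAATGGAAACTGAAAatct
Of the list's 47 genes 36 had a promoter entry and 16 of these held a match, against 521 of 32851 promoter windows of the same length (1.59%). The 4 genes had log2 differences of -1.74, -1.85, -1.41 and -0.80 between 55 and 25 weeks, and Oas1a lost its call with a library group term (adjusted p = 0.0584). A match is a description of these letters and does not show that a factor binds there.

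MHC class II genes, which present peptides to helper T cells, rose at 55 weeks. All 9 passed the test and rose (median log2 difference 3.02), and all but Ctss, 8 in number, rose with a library group term, against 24.6% and 15.6% of all genes. Ciita, the coactivator that switches class II genes on, had 9.12, 2.96, 2.77, 22.7 and 17.2 CPM at 55 weeks, against 1.15, 0.513, 0.359 and 0.521 CPM at 25 weeks. H2-Aa, an alpha chain of the class II molecule (chromosome 17, 34282744 to 34287823), had 111, 39.3, 45.4, 261 and 201 CPM at 55 weeks, against 21.6, 17.8, 8.75 and 16.8 CPM at 25 weeks. Cd74, the invariant chain that guards the peptide groove, had 533, 159, 165, 1192 and 871 CPM at 55 weeks, against 91.3, 55.7, 32.3 and 46.4 CPM at 25 weeks. At 55 weeks replicates 1, 4 and 5 were high and replicates 2 and 3 low for all 3 genes, yet even the low libraries exceeded every 25-week library. The log2 differences were 4.08 ± 0.60, 3.02 ± 0.49 and 3.37 ± 0.52 (edgeR adjusted p = 3.17e-06, 1.45e-05 and 7.81e-06). The peptide loaders H2-DMa, H2-DMb1 and H2-DMb2 rose by 3.82, 2.32 and 2.49, and H2-DMb1 overlapped between the ages. No class II gene passed in wild-type mice (median 0.28), and 8 changes were more positive in villin-PPARD mice, the exception being Ctss, a protease of dendritic cells and macrophages. Myeloid markers and several B cell markers, which include the usual class II carriers, were also higher at 55 weeks (given with the immune cells). Their part in the class II rise was not tested.

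Promoters of 4 class II genes are given because each holds the inverted CCAAT box ATTGG, which in class II promoters is known as the Y box and is bound by NF-Y. The letters were searched as ATTGG and CCAAT in the 150 bases before the RefSeq start (GRCm38.p6), and capitals mark each match. The windows are chr17:34287824-34287973 on the minus strand for H2-Aa, chr17:34305717-34305866 on the plus strand for H2-Eb1, chr17:34153041-34153190 on the plus strand for H2-DMb1 and chr17:34145099-34145248 on the plus strand for H2-DMb2.
H2-Aa: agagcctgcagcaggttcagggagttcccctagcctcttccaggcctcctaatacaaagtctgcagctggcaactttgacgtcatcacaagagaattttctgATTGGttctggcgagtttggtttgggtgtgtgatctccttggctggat
H2-Eb1: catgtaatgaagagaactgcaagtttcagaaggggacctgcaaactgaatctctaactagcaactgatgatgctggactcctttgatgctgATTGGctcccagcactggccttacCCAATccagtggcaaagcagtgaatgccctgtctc
H2-DMb1: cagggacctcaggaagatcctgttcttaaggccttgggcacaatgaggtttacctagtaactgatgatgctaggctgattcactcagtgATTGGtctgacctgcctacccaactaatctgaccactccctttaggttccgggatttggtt
H2-DMb2: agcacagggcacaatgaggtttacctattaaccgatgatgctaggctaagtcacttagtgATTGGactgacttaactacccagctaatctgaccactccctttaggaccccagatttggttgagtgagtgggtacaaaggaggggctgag
Of the 9 genes 6 had a promoter entry and 4 of these held a match, against 8047 of 32851 windows (24.5%), so that the box is common. The first match begins 48 bases before the start in H2-Aa, 59 in H2-Eb1, 61 in H2-DMb1 and 90 in H2-DMb2.

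MHC class I genes did not share this rise. Of 17 genes 4 rose (23.5%, against 24.6% of all genes), 1 fell (5.88%, against 22.8%) and 12 were not called. The median log2 difference was 0.20. H2-K1, a class I heavy chain, had 1415, 1221, 1067, 1690 and 1668 CPM at 55 weeks, against 1841, 1211, 841 and 1150 CPM at 25 weeks, and overlapped (log2 difference 0.16, edgeR adjusted p = 0.448). B2m, the light chain, was the gene that fell (-0.53), and Psmb10, Psmb8, Erap1 and Tapbpl, which cut, trim and load peptides, were those that rose. With a library group term Psmb10 and Tapbpl kept their calls, without replicate 1 of 25 weeks 8 genes rose, without replicate 3 of 25 weeks Psmb8 lost its call (adjusted p = 0.0572), the call of B2m was lost without replicate 3 of 55 or replicate 1 of 25 weeks, and under library size alone 14 rose.

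**Figure D4:**
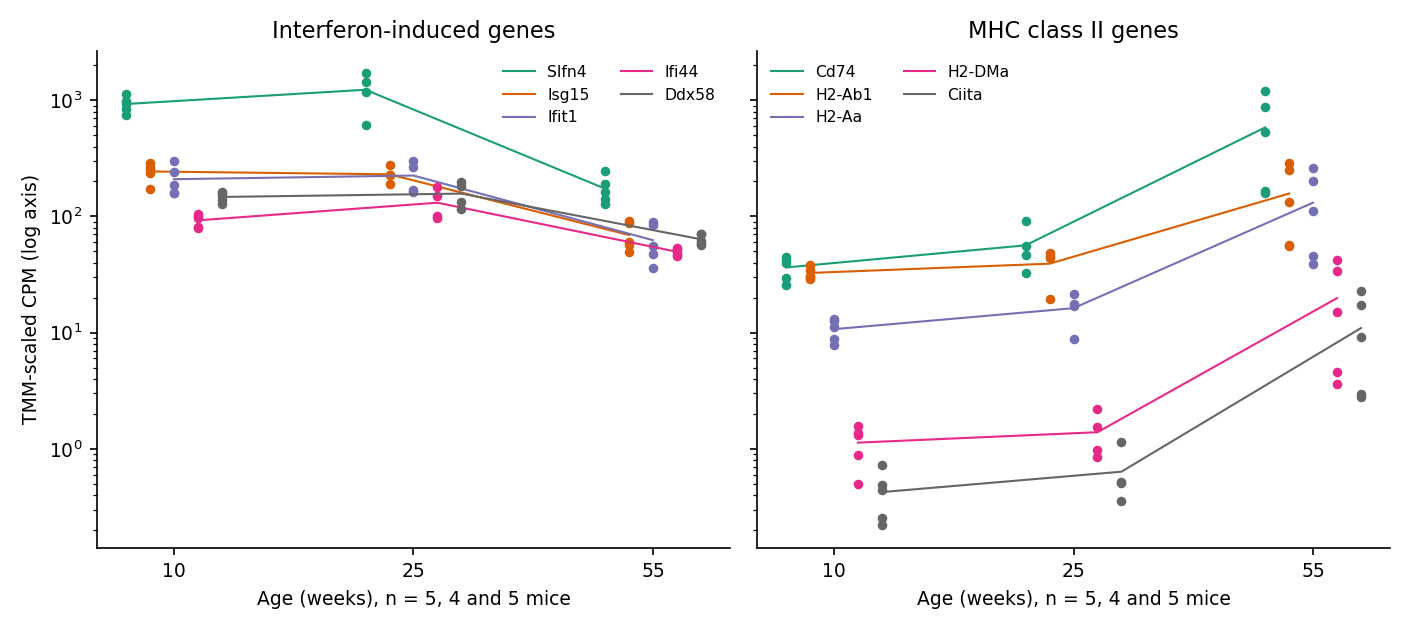
Points are TMM-scaled CPM of single villin-PPARD libraries on a log axis at 10, 25 and 55 weeks (n = 5, 4 and 5 mice), and lines join the means of each gene. The interferon-induced genes on the left are lower at 55 than at 25 weeks, Slfn4 with 128 to 247 CPM against 608 to 1705 CPM, and the class II genes on the right are higher, H2-Aa with 39.3 to 261 CPM against 8.75 to 21.6 CPM.

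Several checkpoint genes, which restrain T cells, rose. Of 13 genes 12 passed the count filter, 10 rose and 1 fell, and with a library group term 5 rose and 1 fell. A gene near 0 at 25 weeks, such as Ctla4, could pass the filter through the 55-week libraries alone, so these counts describe the list without supporting a direction. The change was more positive than in wild-type mice for Cd80 and Pdcd1 and more negative for Lgals9. The list summed to 777 to 1190 CPM at 55 weeks, against 1220 to 1672 CPM at 25 weeks, lower with no overlap, and most of this sum was Lgals9. Myeloid and T cell markers were higher at 55 weeks (values with the immune cells), and their part in the rises of the list was not tested. Vtcn1, the inhibitory ligand B7-H4, had 74.5, 98.6, 114, 85.0 and 85.1 CPM at 55 weeks, against 47.2, 43.2, 18.9 and 58.5 CPM at 25 weeks, with no overlap (log2 difference 1.13, edgeR adjusted p = 2.77e-05). Cd274, the ligand PD-L1, had 4.79, 5.59, 3.23, 11.4 and 9.12 CPM at 55 weeks, against 5.35, 5.02, 1.97 and 3.50 CPM at 25 weeks. The groups overlapped, and replicates 4 and 5 of 55 weeks were highest. The call (0.79, edgeR adjusted p = 0.0198) was lost with a library group term (log2 difference 0.42, adjusted p = 0.465). It was also lost without replicate 4 or 5 of 55 weeks (adjusted p = 0.102 and 0.0616) or replicate 3 or 4 of 25 weeks (0.102 and 0.0528). Ctla4, an inhibitory receptor of T cells, had 209 counts over the 55-week libraries and 3 over the 25-week libraries, a ratio of 34.9 after scaling both sums to their TMM-corrected library totals, as for the count ratios that follow, with a 95% counting interval of 11.8 to 170. Cd80, a ligand that can activate or restrain T cells, and Lag3, an inhibitory receptor, rose by 2.89 and 1.53. Lgals9, galectin 9, was the gene that fell (-0.62), and Ido1, an enzyme that degrades tryptophan, had a log2 difference of -0.96 that did not pass (edgeR adjusted p = 0.111).

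Single cytokines, chemokines and antimicrobial proteins rose steeply. Of 36 genes 29 passed the count filter, 23 rose and 4 fell, and with a library group term 15 rose and 3 fell. Compared with wild-type mice 11 changes were more positive and 3 more negative. Genes at or near 0 at 25 weeks could pass through the 55-week libraries alone, so these counts describe the list without supporting a direction. Ltf, the iron-binding antimicrobial lactoferrin, had 848, 418, 146, 1252 and 1033 CPM at 55 weeks, against 2.77, 4.05, 0.763 and 1.49 CPM at 25 weeks (log2 difference 8.35 ± 0.83, edgeR adjusted p = 1.36e-08). Cxcl5, which attracts neutrophils, had 43.6, 26.1, 10.7, 72.9 and 60.3 CPM at 55 weeks, against 0, 0.114, 0.180 and 0.372 CPM at 25 weeks. Reg3g, an antibacterial lectin of the gut, had 122, 93.7, 19.3, 233 and 173 CPM at 55 weeks, against 2.68, 2.45, 1.57 and 2.90 CPM at 25 weeks. Replicate 3 of 55 weeks was the lowest of its age for Ltf, Cxcl5 and Reg3g and replicate 4 the highest. Ltf and Cxcl5 are among the largest rises, which were chosen from genes without overlap, and Reg3g did not overlap either. Ccl20, which attracts lymphocytes and dendritic cells, had 88.0, 102, 112, 78.8 and 118 CPM at 55 weeks, against 41.9, 25.1, 14 and 52.9 CPM at 25 weeks. Il1f9, an interleukin 1 family cytokine of epithelium, had 21.6, 28.7, 22.1, 24.6 and 38.1 CPM at 55 weeks, against 1.72, 1.71, 1.93 and 4.54 CPM at 25 weeks. Both were separated between ages, more narrowly for Ccl20 (1.59) than for Il1f9 (3.50). Il1b and Tnf, central inflammatory cytokines, rose by 3.55 and 4.11, and Il11, which is known to harm parietal cells in mice, by 2.22. S100a8, an alarmin of neutrophils, had 402 counts over the 55-week libraries and 0 over the 25-week libraries, so that it was at least 67.1-fold higher against a floor of 3 counts over the group. Nos2, inducible nitric oxide synthase, had 899 counts over the 55-week libraries and 1 over the 25-week libraries, a ratio of 450 with a 95% counting interval of 80.6 to 17793. With a library group term S100a8, S100a9 and Lcn2 had log2 differences of 8.10, 6.41 and 7.23 and lost their calls (adjusted p = 0.218, 0.150 and 0.109). Of the genes that fell, Il33, an alarm cytokine of epithelium, had 86.2, 198, 147, 87.4 and 117 CPM at 55 weeks, against 741, 550, 544 and 588 CPM at 25 weeks, and the cytokines Il18, Tslp and Lif fell by 0.92, 1.62 and 0.66 on the log2 scale, Lif with overlap between ages and without a call under a library group term. Duox2, an oxidase of epithelial defence, had 855, 1508, 1201, 1381 and 1961 CPM at 55 weeks, against 821, 619, 277 and 778 CPM at 25 weeks (log2 difference 1.15). With the term Duox2 had a log2 difference of 1.13 and lost its call (adjusted p = 0.0762).

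The summed markers of myeloid cells and of T and NK cells were higher at 55 weeks, and few fibroblast and smooth muscle markers passed the test. The 22 myeloid markers summed to 270 to 493 CPM at 55 weeks, against 95.7 to 172 CPM at 25 weeks, and to 122 to 135 CPM in wild-type mice of 55 weeks and 57.4 to 153 CPM in those of 25 weeks. Of 20 that passed the filter 18 rose and 0 fell, and with a library group term 7 rose, while 6 changes were more positive than in wild-type mice. Cd14, the lipopolysaccharide receptor of monocytes, had 120, 92.8, 66.4, 128 and 110 CPM at 55 weeks, against 5.07, 4.11, 4.13 and 11.5 CPM at 25 weeks, and Itgam (CD11b) had 6.81, 7.78, 7.20, 8.98 and 10.4 CPM at 55 weeks, against 1.34, 1.43, 0.853 and 2.09 CPM at 25 weeks. Csf3r, the growth factor receptor of neutrophils, and Ly6c2, of inflammatory monocytes, rose by 2.40 and 2.49. No library of the ages overlapped for these 4 genes. The 14 T and NK cell markers summed to 9.10 to 27.5 CPM at 55 weeks, against 2.56 to 3.65 CPM at 25 weeks, and were thus low at both ages. Gzmb, a protease of killer lymphocytes, had 320 counts at 55 weeks and 1 at 25 weeks. The filter was passed by 7 of the markers, some of them through the 55-week libraries alone, so that their calls give no direction for the list, and 3 of these changes were more positive than in wild-type mice. The defining genes Cd8a, Ncr1 and Nkg7 had 2 to 15 counts over either age group. Cd3e, part of the T cell receptor complex, had 1.94, 1.55, 1.54, 4.25 and 3.50 CPM at 55 weeks, against 0.430, 0.342, 0.314 and 0.596 CPM at 25 weeks. Jchain, which joins secreted antibodies, had 182, 77.6, 153, 254 and 203 CPM at 55 weeks, against 6.02, 4.11, 1.84 and 8.34 CPM at 25 weeks, with no overlap. It also passed in wild-type mice (2.84, edgeR adjusted p = 0.00108), and the change was larger in villin-PPARD mice by 2.29 (edgeR adjusted p = 0.00229). Mzb1, a chaperone of antibody-secreting cells, had 593 counts at 55 weeks and 1 at 25 weeks, a ratio of 297 with a 95% counting interval of 53.1 to 11743. Of 13 B and plasma cell markers 9 passed the filter, 6 rose and 2 fell, and with a library group term 4 rose and 0 fell. Markers near 0 at 25 weeks, such as Mzb1, could pass the filter through the 55-week libraries alone, so these counts give no direction for the list. Derl3, a factor of protein quality control, and Xbp1 were the genes that fell (-1.02 and -0.41), and the B cell genes Cd79a and Pou2af1 rose by 5.23 and 3.54. The B and plasma cell list holds Xbp1 and Sdc1, which epithelium expresses, and its sum of 738 to 887 CPM at 55 weeks, against 614 to 698 CPM at 25 weeks, is mostly theirs. Among mast cell markers the mucosal proteases Mcpt1 and Mcpt2 rose by 3.08 and 2.62, while Kit and Hdc, which other gastric cells also express, fell by 2.17 and 1.91 on the log2 scale and Cpa3 and Tpsab1 had log2 differences of 0.01 and -0.12 that did not pass.

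Of 16 fibroblast markers 2 rose and 1 fell, and 0 passed with a library group term. The calls were Thy1 (2.06) and Vim (1.14), which immune cells also express, and Fbln1 (-0.62, edgeR adjusted p = 0.0441), whose call was also lost without replicate 1, 4 or 5 of 55 weeks or replicate 2, 3 or 4 of 25 weeks (adjusted p = 0.0691 to 0.132). Their sum was 563 to 999 CPM at 55 weeks, against 312 to 774 CPM at 25 weeks. Of 13 endothelial markers 5 rose and 1 fell, with 2 and 1 under a library group term, and the 5 were 3 without replicate 1 of 25 weeks or replicate 4 of 55 weeks and 2 without replicate 3 of 25 weeks. Vwf and Esam, of the vessel lining, rose by 2.92 and 1.10, and Tek, the angiopoietin receptor, fell by 1.89 on the log2 scale. Smooth muscle markers had 1 gene higher, Smtn (0.51), and 1 lower, Tpm2 (-1.40), of 13, and the 4 tested erythroid markers had none. The squamous list, which covers the forestomach that adjoins the corpus, summed to 197 to 374 CPM at 55 weeks, against 142 to 301 CPM at 25 weeks. Of 16 squamous genes 12 passed the filter, 6 rose and 0 fell, and 3 kept their call with a library group term. Genes near 0 at 25 weeks, such as Krt5, could pass the filter through the 55-week libraries alone, so these counts give no direction for the list. In wild-type mice the list summed to 218 to 327 CPM at 55 weeks and 138 to 204 CPM at 25 weeks, with no overlap and a median log2 difference of 0.94, against 1.66 in villin-PPARD mice. Its change differed between genotypes for Dsg3, more positive in villin-PPARD mice, and Krt13, more negative. Krt5, a keratin of basal squamous cells, had 21.1, 1.55, 1.35, 8.72 and 2.38 CPM at 55 weeks, against 0.478, 1.2, 1.21 and 0 CPM at 25 weeks. Replicates 1 and 4 of 55 weeks stood above the rest, the ages just separated, and the call was lost with a library group term (log2 difference 2.99, adjusted p = 0.121). Ivl, a squamous envelope protein, had 40.6, 66.6, 81.5, 31.8 and 44.8 CPM at 55 weeks, against 2.05, 1.25, 0.853 and 20.3 CPM at 25 weeks, where replicate 4 stood far above the other young mice, and kept its call with the term (3.22; adjusted p = 0.0280). Lor, a protein of keratinized squamous cells, had 5 counts at 55 weeks and 3 at 25 weeks, and Trp63, the squamous master factor, 28 and 5. Of 10 neuron and glia markers 5 passed the filter: Ret, a growth factor receptor, and S100b rose by 3.46 and 4.83, and Tubb3 fell by 2.93 on the log2 scale. What share of the other results comes from immune or squamous cells was not tested.

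**Figure D5:**
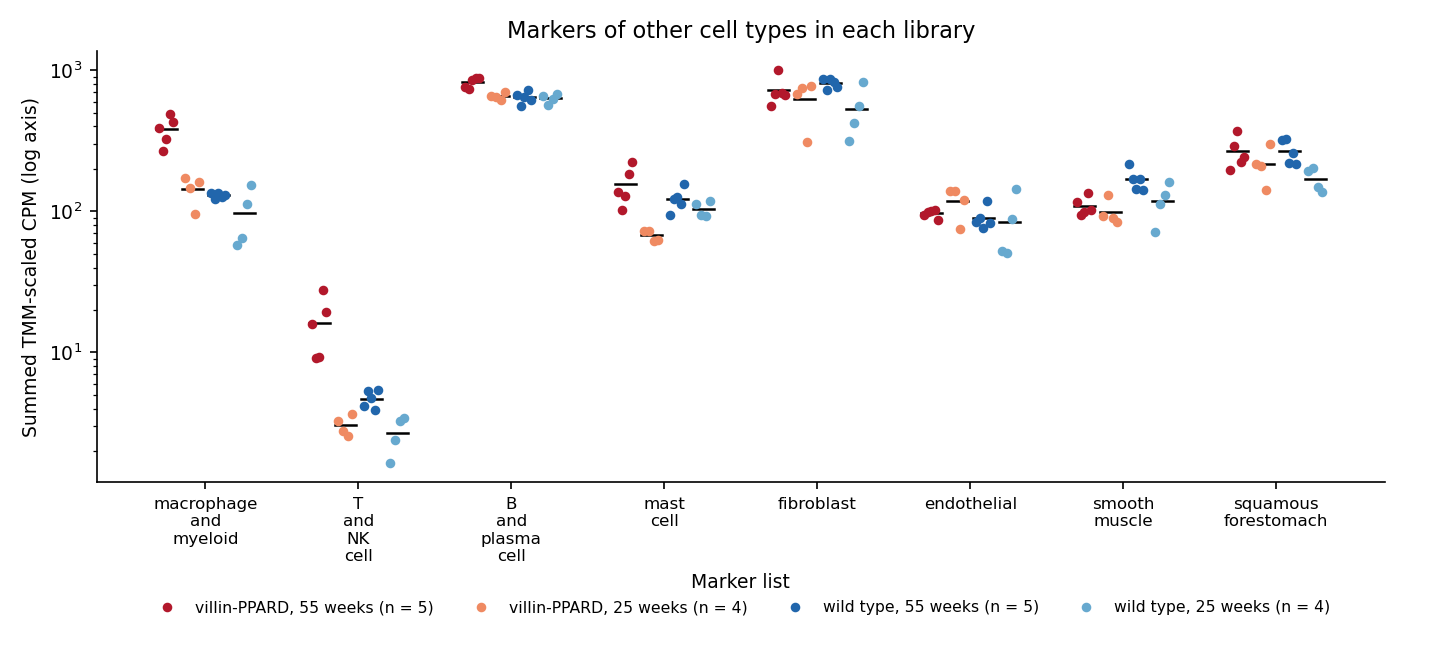
Points are the summed TMM-scaled CPM of 8 marker lists in single libraries on a log axis, with villin-PPARD mice of 55 weeks (dark red, n = 5) and 25 weeks (orange, n = 4) to the left of wild-type mice of 55 weeks (dark blue, n = 5) and 25 weeks (light blue, n = 4), and bars are group means. Myeloid markers with 270 to 493 CPM and T and NK cell markers with 9.10 to 27.5 CPM in villin-PPARD mice of 55 weeks lie above all other libraries, while fibroblast, endothelial and smooth muscle markers overlap between the villin-PPARD ages.

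Junction and keratin genes changed for single members. Of 19 claudin and junction genes 16 passed the filter, 7 rose and 3 fell, with 3 and 3 under a library group term. Cldn2, a claudin that forms pores for small cations, had 243, 185, 156, 155 and 233 CPM at 55 weeks, against 2.39, 3.82, 1.80 and 9.23 CPM at 25 weeks, a 47.7-fold difference (log2 5.58 ± 0.33, edgeR adjusted p = 5.73e-13). Cldn7 had 251, 284, 264, 276 and 329 CPM at 55 weeks, against 12.9, 11.9, 2.83 and 51.2 CPM at 25 weeks. Both were separated between ages, with replicate 4 the highest and replicate 3 the lowest of 25 weeks. Cldn18, the main claudin of the stomach, had 1651, 2007, 2156, 1863 and 2385 CPM at 55 weeks, against 3336, 2777, 1953 and 2725 CPM at 25 weeks, and was called lower although the groups overlapped (-0.42, edgeR adjusted p = 0.00619). Cldn3 rose by 2.37 and Cldn8 fell by 4.66 on the log2 scale. Cldn4 had a log2 difference of 1.25 and lost its call with a library group term (log2 difference 0.50, adjusted p = 0.491). Krt7, a keratin of ducts and metaplastic glands, had 243, 434, 432, 293 and 306 CPM at 55 weeks, against 70.6, 74.0, 45.6 and 177 CPM at 25 weeks, with no overlap (log2 difference 1.90). Krt23 and Krt80 fell by 1.01 and 0.84 on the log2 scale, and Krt8, Krt18 and Krt19, the keratins of all simple epithelia, had log2 differences of -0.23, -0.14 and -0.36 that did not pass, although Krt19 was called lower with a library group term (-0.60, adjusted p = 0.0334).

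Genes of matrix remodelling rose in part. Of 26 genes 25 passed the filter, 12 rose and 2 fell, and with a library group term 4 rose and 1 fell, while the list's median was 0.77 in villin-PPARD and 0.64 in wild-type mice and the change was more positive in villin-PPARD mice for 3 genes and more negative for 2. Mmp10, stromelysin 2, had 51.7, 38.6, 18.3, 64.9 and 59.5 CPM at 55 weeks, against 13, 8.44, 1.62 and 20.4 CPM at 25 weeks. The ages overlapped, and its log2 difference of 2.13 lay beside 3.26 in wild-type mice (edgeR adjusted p = 0.000171 and 0.0315), a difference of -1.13 between genotypes that did not pass (edgeR adjusted p = 0.369). With a library group term Mmp10 had a log2 difference of 1.87 in villin-PPARD mice and lost its call (adjusted p = 0.0672). Spp1, osteopontin, had 43.0, 23.8, 22.2, 32.3 and 46.5 CPM at 55 weeks, against 5.97, 4.96, 2.56 and 5.36 CPM at 25 weeks, and its change was larger in villin-PPARD mice by 3.47 (edgeR adjusted p = 7.42e-06). Itga2, a collagen receptor, had 49.4, 105, 88.5, 84.4 and 109 CPM at 55 weeks, against 12.5, 12.6, 2.02 and 32.1 CPM at 25 weeks, with no overlap and no test passed for a difference from wild-type mice (0.91, edgeR adjusted p = 0.463). Mmp9, a matrix protease, rose by 1.96 and kept its call with the term. Of 12 EGF family genes 11 passed the filter, 4 rose and 1 fell: the ligands Epgn, Ereg, Nrg1 and Hbegf rose by 2.42, 1.55, 1.04 and 0.31, and Egf, the founding ligand, fell by 2.29 on the log2 scale. The receptor Egfr had 81.7, 179, 159, 132 and 200 CPM at 55 weeks, against 224, 178, 76.7 and 186 CPM at 25 weeks, and did not pass (log2 difference -0.14, edgeR adjusted p = 0.665). Hbegf overlapped between ages and lost its call with a library group term, and Nrg1 also rose in wild-type mice (1.46, edgeR adjusted p = 0.0353).

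Outside the lists, the genes with the largest rises included Nox1, a superoxide-producing oxidase of colon epithelium, with 50.6, 24.5, 5.77, 88.4 and 89.2 CPM at 55 weeks, against 0, 0.0570, 0.0449 and 0.0745 CPM at 25 weeks. It had 8252 counts over the 55-week libraries and 3 over the 25-week libraries, a ratio of 1377 with a 95% counting interval of 471 to 6678. With a library group term Nox1 had a log2 difference of 8.20 and lost its call (adjusted p = 0.255). Vnn3, a relative of Vnn1, had 351 counts at 55 weeks and 0 at 25 weeks, at least 58.6-fold higher on the floor of 3 counts over the group. With the term Vnn3 had a log2 difference of 7.52 and also lost its call (adjusted p = 0.290). Mab21l3 had 29.2, 19.6, 6.24, 42.8 and 32.7 CPM at 55 weeks, against 0.0478, 0.0570, 0 and 0.223 CPM at 25 weeks, and Adgrg7, an adhesion receptor, 168, 141, 67.9, 216 and 333 CPM at 55 weeks, against 0.335, 0.0570, 0.135 and 2.68 CPM at 25 weeks. For Nox1, Vnn3 and Mab21l3 replicates 1, 4 and 5 of 55 weeks were the highest, and replicate 3 was the lowest 55-week library for all 4 genes. Among the largest drops, Cckar, a receptor for cholecystokinin, had 0.712, 0.864, 0.0385, 0.335 and 0.444 CPM at 55 weeks, against 22.7, 24.5, 30.3 and 14.2 CPM at 25 weeks. Gper1, a membrane oestrogen receptor, Gpm6a, Prlr, the prolactin receptor, and Nrn1 fell by 6.06, 5.54, 5.11 and 5.11 on the log2 scale, each also lower with a library group term. Lack of overlap was a condition for choosing these largest rises and drops, here and where they are named with their lists, and is no result about them.

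The genes with the smallest p for a difference between genotypes in their change with age are given last, 6 in each direction. C4bp, an inhibitor of complement, had 96.1, 97.7, 76.7, 122 and 132 CPM at 55 weeks, against 4.01, 4.79, 4.62 and 7.37 CPM at 25 weeks, and 3.62 ± 0.695 CPM in wild-type mice of 55 weeks (SD, n = 5) and 4.75 ± 0.747 CPM in those of 25 weeks (SD, n = 4). Its change was larger in villin-PPARD mice by 4.75 log2 units (edgeR adjusted p = 3.33e-14). Shf, an adaptor protein, had 44.7, 38.9, 33.2, 30.5 and 32.5 CPM at 55 weeks, against 0.669, 0.513, 0.583 and 1.86 CPM at 25 weeks, and Fzd1, a Wnt receptor, 23.4, 24.6, 25.6, 33.3 and 29.8 CPM at 55 weeks, against 5.26, 5.82, 5.07 and 6.33 CPM at 25 weeks. Fads2, a fatty acid desaturase, Tm7sf2, an enzyme of cholesterol synthesis, and Shisa2 also rose, with differences between genotypes of 3.42, 2.17 and 3.17. In the other direction Gsdma2, a gasdermin of the gastric surface, had 430, 449, 362, 350 and 315 CPM at 55 weeks, against 2027, 1820, 1813 and 1608 CPM at 25 weeks, and Fgfbp1, a carrier of fibroblast growth factors, 11.6, 18.5, 15.3, 8.23 and 9.72 CPM at 55 weeks, against 122, 122, 110 and 80.9 CPM at 25 weeks. Neither gene overlapped between ages. Gsdmc4, Dcbld2, Hrh2 and Cnn3 completed the 6 with the more negative change, with differences between genotypes of -2.59, -1.87, -3.48 and -3.07. All 12 of these genes kept their call for 55 against 25 weeks with a library group term. Gasdermin genes have close copies, and their counts may be split or dropped.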

How the data were processed

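Polyadenylated RNA of hand-scraped corpus cells was sequenced as paired 75-base reads on an Illumina HiSeq 4000, 1 library per mouse, 28 libraries in all, per the labels' protocols. The deposited values are counts of reads per gene symbol that the authors made, 1 column per library. Per the submitters' processing notes, TopHat2 2.0.14 and HTSeq 0.6.1 were used with the mouse build mm10. No label names the annotation or the strand setting, so reads of overlapping and antisense genes cannot be told apart.

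All 28 libraries were fitted together with 1 mean for each of the 6 groups of genotype and age, without a covariate. Of 49492 symbols 15812 passed edgeR's filterByExpr. Counts were scaled by TMM and tested with edgeR 4.0.16 (quasi-likelihood F-test, robust) in R 4.3.3, and p-values were adjusted by Benjamini and Hochberg over all genes tested, with a threshold of 0.05. Contrasts were 55 minus 25 weeks in villin-PPARD mice, the same in wild-type mice, and the difference of both changes. CPM in the text are TMM-scaled, and log2 differences and SE come from the fit. The fit was repeated without the count filter, with the groups compared alone, with DESeq2 size factors, with library sizes as the scaling, with a library group term, with DESeq2 1.42.0, with limma 3.58.1 (voom with sample weights), with a 2-fold threshold, with the replicate number as a block, and with each library left out. Leaving out replicate 2 of the 10-week wild-type mice was chosen after seeing the data, because it and replicate 3 differed least of all pairs within a group (chi-square per degree of freedom 3.95, next lowest 13.8) yet by more than counting noise. Single measures of libraries were compared by two-sided exact permutation tests (scipy 1.17.1). Total counts ran from 10982888 to 30891108 over all libraries. Intervals and floors (3 counts over a group) cover counting error only. Positions are those of GENCODE on GRCm38, the same build as mm10, and promoter sequences are from RefSeq.

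Members and gene lists were chosen with earlier results of these data known. Named genes are Ppard and Vil1, the 12 highest and 12 lowest log2 differences among called genes without overlap and with a mean of at least 1 CPM, up to 4 genes per list by adjusted p, a set of defining genes, and 6 genes per direction for the difference between genotypes. Other list members named were chosen after their values were seen. Some genes that this rule or the lists hold are not reported here.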

Additional observations from a re-analysis of the deposited data

Results flagged for a closer look

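The change from 25 to 55 weeks was called different between villin-PPARD and wild-type mice for 4570 genes by edgeR's test of that difference. Log2 values that follow are the change in villin-PPARD mice minus the change in wild-type mice. Among gland genes it was -3.68 for Atp4a, -3.82 for Atp4b, -4.66 for Pgc, -5.54 for Gif, -3.48 for Hrh2 and -1.70 for Muc6. Surface and mucus genes had -2.29 for Muc5ac, -1.5 for Gkn1, -0.68 for Tff1 and -2.40 for Muc2, and Tff1 was not called without replicate 4 of villin-PPARD mice of either age or replicate 2 of 25-week wild-type mice. The stem cell marker Lgr5 had -3.41, and the interferon-induced genes Slfn4 and Ifi44 had -3.51 and -1.58, of which Ifi44 was not called without replicate 1 or 2 of 55-week or replicate 1 of 25-week wild-type mice. The change was more positive in villin-PPARD mice for Vil1 (1.21), Cd44 (2.90), Sox2 (0.89) and Krt7 (1.41). The genes with the smallest p were C4bp (4.75), Fzd1 (2.57), Shisa2 (3.17), Tm7sf2 (2.17), Shf (5.75) and Fads2 (3.42) with the more positive change and Gsdmc4 (-2.59), Gsdma2 (-2.34), Fgfbp1 (-2.98), Dcbld2 (-1.87) and Cnn3 (-3.07) with the more negative change.

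In the 25-week villin-PPARD mice, replicate 3 stood apart below the other 3 libraries in the summed CPM of the intestinal list, at 2406 CPM. The same library stood apart below the others in that of the EGF family list, at 633 CPM. Chance alone sets about 5% of such groups apart, and 2 of 132 groups examined were.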

How the results depend on the processing

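For 55 against 25 weeks in villin-PPARD mice, none of the genes named by rule that were called, with or without the alternative, changed sign. Of those not called, Egfr (0.18) and Tff2 (0.07) turned positive with library size alone, which put the median of all genes at 0.34 and so turns other small negative differences too, Egfr without replicate 1 of 55 or 25 weeks (0.02 and 0.04), and Ppard turned negative without replicate 1 of 25 weeks (-0.02). A threshold of 2-fold left 1749 genes (999 higher, 750 lower), library size alone gave 7354 higher and 1766 lower, and a library group term left 2471 higher. DESeq2 size factors, DESeq2's own test, voom, no filter and only the groups compared gave 6738 to 8264 genes in all. Leaving out 1 library gave 6635 to 7526 genes, 3465 to 4008 higher and 3170 to 3518 lower. The wild-type count was 304 with library size alone, 106 without a filter, 3 with a library group term, 498 with DESeq2, 344 with voom, 1 with the 2-fold threshold, and 32 to 210 without 1 library. For the difference between genotypes the 2-fold threshold left 844 genes (361 more positive, 483 more negative), library size alone gave 3869 and 1406, and leaving out 1 library gave 3944 to 5148 (1931 to 2637, 2004 to 2511). The p for mitochondrially encoded counts was 0.0286 to 0.143 without 1 library.

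Of 170 named genes, 19 lost their call with a library group term, 41 with the 2-fold threshold, 5 with library size alone (2 gained one) and 0 to 4 without 1 library. The replicate block gave 7120, 4315 and 139 genes for villin-PPARD mice, the difference and wild-type mice, and ended the call of Fbln1 (adjusted p = 0.0521). Replicate numbers did not pair the libraries: same-numbered libraries of 55 and 25 weeks correlated at -0.23, -0.12, -0.05 and -0.01 in their deviations. Counts of a few reads limit the genes near 0 at 25 weeks.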
